A study of Mus musculus with 12 samples.

Results

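Macrophages digest the RNA and DNA that they take up, and 10 genes of that process are described here across 12 libraries of mouse bone marrow macrophages. They were chosen by name from the deposited expression table, which lists 32246 genes, and all 10 were found: Rnaset2a and Rnaset2b (RNase T2), Rnase4, Ang (angiogenin), Rnh1 (ribonuclease inhibitor), Dnase2a (DNase II), Pld3, Pld4, Sidt1 and Sidt2. The genes were picked by function, with earlier results of these data known, and the choice sets no threshold on a measured value.

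The macrophages were differentiated with GM-CSF at 50 ng/mL for 7 days, and total RNA was sequenced in 3 groups of 4 libraries. For 24 h, cells of the PLG+EACA+RNase group received PLG (plasminogen) exposed beforehand to RNases and EACA. Cells of the PLG+EACA group received PLG exposed only to EACA, and the third group was untreated. EACA is a lysine analogue that occupies the lysine-binding sites of plasminogen. The labels name neither the RNases nor a vehicle for the untreated cells, and there was no group with EACA alone or with PLG alone, so effects of PLG and of EACA cannot be told apart. No group had RNases without PLG either, so RNase action on the PLG preparation and on the cells cannot be told apart. Separate animals or cultures behind the 4 replicates are not stated either, so p-values measure only the spread between these samples. Both treatments were compared with the same 4 untreated libraries, so those comparisons are not independent of each other.

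In the endosome and lysosome, RNase T2 cuts RNA and DNase II cuts DNA, and PLD3 and PLD4 trim single strands from the 5′ end. These enzymes decide which nucleic acid fragments reach the endosomal Toll-like receptors, and loss of PLD3 and PLD4 or of DNase II in mice leads to inflammation driven by undigested nucleic acid. RNase 4 and angiogenin are small secreted ribonucleases of the RNase A family, and the ribonuclease inhibitor in the cytosol binds enzymes of that family tightly. SIDT1 and SIDT2 are relatives of the worm double-stranded RNA channel SID-1, and SIDT2 sits mainly in the lysosomal membrane.

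The 2 genes for RNase T2 lie on chromosome 17 (build GRCm38), Rnaset2a (ENSMUSG00000095687.2) at 8115445 to 8148097 on the minus strand and Rnaset2b (ENSMUSG00000094724.8) at 6970634 to 7011299 on the plus strand. Their annotated coding sequences were identical over all 777 bases, so a read from the coding part cannot be placed in either copy. The first 300 coding bases, shared by both, are shown because this identity limits what the separate values mean, with the start codon in capitals (GENCODE M21, GRCm38).
RNase T2 coding bases 1 to 300: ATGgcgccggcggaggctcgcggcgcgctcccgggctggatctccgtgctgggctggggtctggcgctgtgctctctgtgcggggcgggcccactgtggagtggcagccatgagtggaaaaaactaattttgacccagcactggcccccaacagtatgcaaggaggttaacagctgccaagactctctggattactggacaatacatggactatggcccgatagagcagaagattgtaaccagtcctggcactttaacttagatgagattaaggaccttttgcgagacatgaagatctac
The RefSeq promoter windows (GRCm38.p6, 250 bases before to 50 after a start) of the copies, chr17:8147738-8148037 on the minus strand for Rnaset2a and chr17:6978610-6978909 on the plus strand for Rnaset2b, matched in 254 of 255 aligned bases. The difference, A102G with positions counted from the 5′ end of the Rnaset2a window, is in capitals.
Rnaset2a promoter window: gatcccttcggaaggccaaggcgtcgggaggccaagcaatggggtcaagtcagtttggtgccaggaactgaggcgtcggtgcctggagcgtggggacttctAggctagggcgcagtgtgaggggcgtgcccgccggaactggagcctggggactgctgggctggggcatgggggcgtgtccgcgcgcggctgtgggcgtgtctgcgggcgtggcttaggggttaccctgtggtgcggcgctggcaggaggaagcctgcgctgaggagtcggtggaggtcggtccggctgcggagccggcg
Rnaset2b promoter window: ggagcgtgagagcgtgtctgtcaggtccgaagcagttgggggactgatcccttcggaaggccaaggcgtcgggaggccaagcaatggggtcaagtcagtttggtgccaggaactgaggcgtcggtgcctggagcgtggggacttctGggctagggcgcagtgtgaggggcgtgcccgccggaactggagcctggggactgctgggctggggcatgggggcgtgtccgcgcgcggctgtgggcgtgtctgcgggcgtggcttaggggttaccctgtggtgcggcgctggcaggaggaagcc
Rnase4 and Ang on chromosome 14 have one RefSeq promoter window in common, chr14:51090827-51091126 on the plus strand, printed since the genes share this start and 219 exon bases.
Rnase4 and Ang shared promoter window: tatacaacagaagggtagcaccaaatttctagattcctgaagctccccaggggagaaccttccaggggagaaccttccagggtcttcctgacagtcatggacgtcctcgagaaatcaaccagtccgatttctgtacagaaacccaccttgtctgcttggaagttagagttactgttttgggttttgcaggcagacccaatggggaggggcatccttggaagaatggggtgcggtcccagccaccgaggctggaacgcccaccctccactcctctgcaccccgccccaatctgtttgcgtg

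The split of reads between such genes is uncertain. Of the distinct 50-base stretches in annotated transcripts, 78.9% for Rnaset2a and 57.2% for Rnaset2b were also found in transcripts of other genes, namely of the other copy or of the overlapping genes Gm49673 and Gm49721. The share was 7.75% for Rnase4, 14.5% for Ang, 6.45% for Sidt1 and 8.94% for Sidt2, and 0% for Rnh1, Pld3 and Pld4. For Dnase2a it was 27.5%, mainly through Mast1, an antisense gene with a mean FPKM of 0.458 that overlaps 1616 of its exon bases. Whether counting used the strand, and what was done with reads that fit several places, is not given in the sources used here, so the absolute levels of the RNase T2 copies are uncertain.

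Depth, recovered from the steps of the deposited values, was 12940888 to 22677038 counted reads per library. Macrophage markers were abundant, all 8 of them detected, with a summed level of 4080 to 4641 FPKM with PLG+EACA+RNase, 4154 to 6084 with PLG+EACA and 5324 to 5931 in untreated cells. Most of that sum was Lyz2, with means of 3615, 4289 and 4663 FPKM in that order. Single macrophage markers went both ways in limma with Benjamini-Hochberg adjustment. With PLG+EACA+RNase 1 was higher and 4 were lower, against 16.0% and 48.4% of all tested genes. With PLG+EACA 3 were higher and 4 lower, against 14.9% and 53.4%. Mertk was higher and Csf1r lower in both treatments. Markers of T and NK cells summed to at most 0.312 FPKM in any library and those of B cells to at most 1.557. Dendritic cell markers, all 8 detected, came next, with 519 to 571 FPKM with PLG+EACA+RNase, 424 to 557 with PLG+EACA and 571 to 622 in untreated cells, most of it from Itgax, which macrophages can also carry. Neutrophil markers summed to 23.3 to 56.5 FPKM with PLG+EACA+RNase, 24.6 to 67.8 with PLG+EACA and 13.3 to 55.8 in untreated cells. Markers of eosinophils, basophils and mast cells summed to at most 12.07 FPKM in any library. Those of stroma and endothelium summed to 9.48 to 18.95 FPKM with PLG+EACA+RNase, 11.7 to 27.4 with PLG+EACA and 10.8 to 20.06 in untreated cells. Of these, Pdgfrb averaged 3.32 ± 0.479 FPKM with PLG+EACA+RNase, 3.85 ± 0.569 with PLG+EACA and 1.31 ± 0.187 in untreated cells, and was higher in both treatments (limma with Benjamini-Hochberg adjusted p = 8.15e-06 with PLG+EACA+RNase and 2.24e-06 with PLG+EACA). Kdr averaged 3.48 ± 0.99 FPKM with PLG+EACA+RNase, 5.64 ± 1.14 with PLG+EACA and 2.51 ± 0.404 in untreated cells, and was higher with PLG+EACA (limma with Benjamini-Hochberg adjusted p = 0.00045). The other tested genes of the stroma and endothelium list, Col1a1 and Col1a2, went the other way and were not called. With PLG+EACA+RNase their log2 fold changes were -0.81 and -0.54 (limma with Benjamini-Hochberg adjusted p = 0.325 and 0.418). With PLG+EACA they were -0.84 and -0.43 (adjusted p = 0.298 and 0.517). The remaining genes of that list were too low to be tested. No marker was at 0 in all 12 libraries. The part of these other cells in the results below was not tested. In a bulk sample, fewer cells of a type and less RNA per cell cannot be told apart.

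**Figure D1:**
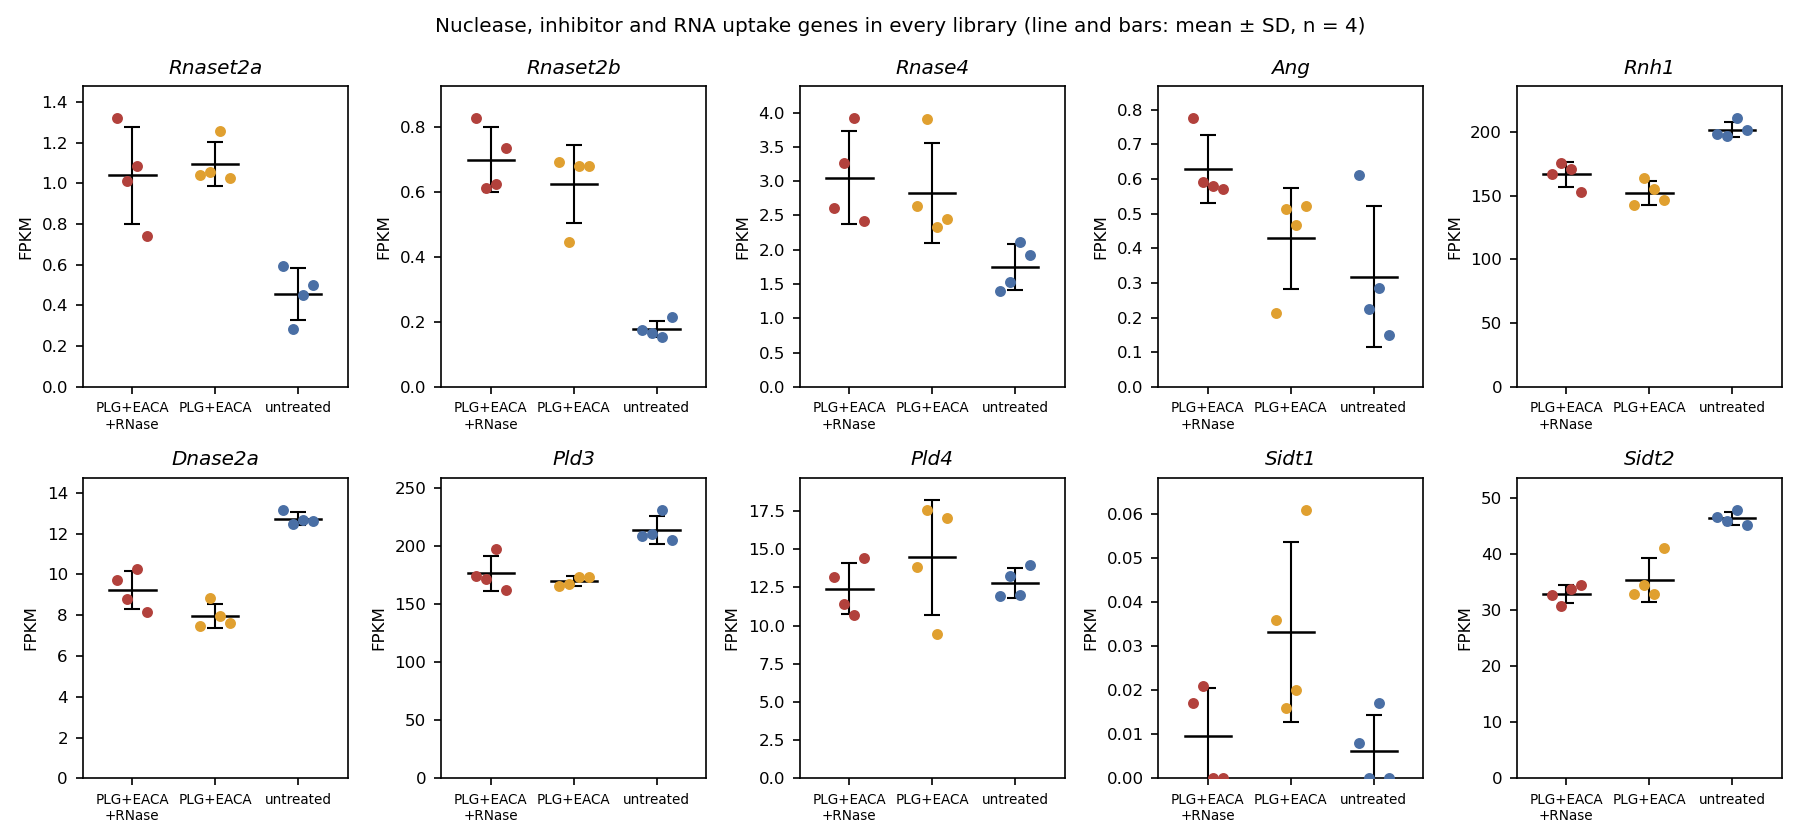
FPKM of each of the 10 genes in every library (1 point a library, line and bars the mean ± SD, n = 4), with PLG+EACA+RNase on the left, PLG+EACA in the middle and untreated cells on the right. Rnaset2a, Rnaset2b and Rnase4 stood above untreated cells in all 8 treated libraries, while Rnh1, Dnase2a, Pld3 and Sidt2 stood below.

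RNase T2 transcripts stood well above their untreated level in both treatments. Rnaset2a was measured at 1.32, 1.01, 1.09 and 0.742 FPKM with PLG+EACA+RNase, 1.04, 1.06, 1.26 and 1.03 with PLG+EACA, and 0.592, 0.283, 0.453 and 0.499 in untreated cells. Rnaset2b was measured at 0.826, 0.612, 0.624 and 0.734 FPKM with PLG+EACA+RNase, 0.690, 0.445, 0.679 and 0.679 with PLG+EACA, and 0.176, 0.167, 0.154 and 0.214 in untreated cells. For either copy, every treated library lay above every untreated one, and the treatments overlapped each other.

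The summed level of both copies, taken from FPKM with nothing added, depends less on how reads were split between them. It averaged 1.74 ± 0.288 FPKM with PLG+EACA+RNase, 1.72 ± 0.178 with PLG+EACA and 0.635 ± 0.14 in untreated cells (SD, n = 4). The sum was 2.77-fold higher with PLG+EACA+RNase than in untreated cells (exact permutation test, two-sided, p = 0.0286, the smallest that 4 against 4 libraries allow; Benjamini-Hochberg adjusted over 3 tests, p = 0.0429). With PLG+EACA it was 2.75-fold higher than in untreated cells (same exact test, p = 0.0286, adjusted p = 0.0429). Between PLG+EACA+RNase and PLG+EACA the ratio was 1.01 (exact permutation p = 0.971), with the log2 difference between -0.10 and 0.08 when any 1 library was left out. The counts behind these values were small, 47 to 90 reads per treated library and 14 to 43 per untreated library for Rnaset2a, which has 3343 exon bases.

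**Figure D2:**
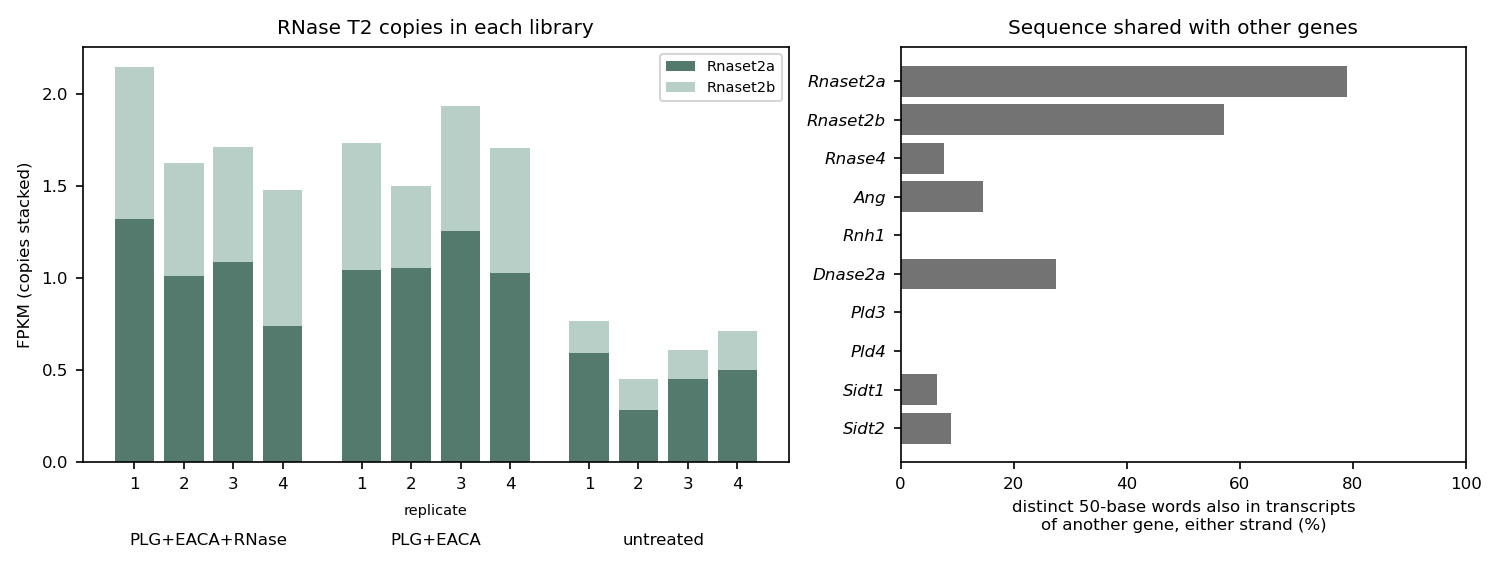
Left, FPKM of Rnaset2a and Rnaset2b stacked for each library, by group and replicate number. Right, percent of each gene's distinct 50-base stretches that also occur in transcripts of another gene. The stacked bars reach 1.48 to 2.15 with PLG+EACA+RNase, 1.5 to 1.94 with PLG+EACA and 0.45 to 0.768 in untreated cells, and the RNase T2 copies share more sequence than the other genes.

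The secreted ribonuclease gene Rnase4 (chromosome 14, 51091077 to 51106151, ENSMUSG00000021876.15) also stood higher after treatment. Its level was 2.61, 3.26, 3.92 and 2.42 FPKM with PLG+EACA+RNase, 2.63, 3.91, 2.33 and 2.44 with PLG+EACA, and 1.41, 1.53, 2.12 and 1.93 in untreated cells. The highest untreated library lay below the lowest library of either treatment. Ang (51091150 to 51102009, ENSMUSG00000072115.11), a ribonuclease best known for inducing blood vessel growth and cutting tRNA, was counted with only 3 to 19 reads per library. Ang levels were 0.775, 0.592, 0.579 and 0.571 FPKM with PLG+EACA+RNase, 0.213, 0.514, 0.466 and 0.522 with PLG+EACA, and 0.612, 0.225, 0.285 and 0.149 in untreated cells. The PLG+EACA+RNase libraries lay above all PLG+EACA libraries, and both treatments overlapped untreated cells, where replicate 1 stood above the other 3.

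Rnh1 (chromosome 7, 141160326 to 141172857, minus strand, ENSMUSG00000038650.15), the intracellular inhibitor of the RNase A family, was among the most abundant of the 10 genes and was lower after treatment. It was measured at 167, 176, 171 and 153 FPKM with PLG+EACA+RNase, 143, 164, 155 and 146 with PLG+EACA, and 198, 197, 211 and 201 in untreated cells. No treated library reached the lowest untreated one, and 3 of 4 PLG+EACA+RNase libraries lay above every PLG+EACA library. Within libraries, the log2 ratio of Rnh1 to Rnase4 averaged 5.57 ± 0.216 with PLG+EACA+RNase, 5.54 ± 0.239 with PLG+EACA and 6.5 ± 0.178 in untreated cells (SD, n = 4). This ratio, which apart from the pseudocount does not depend on scaling between libraries, was 0.525 times that of untreated cells with PLG+EACA+RNase and 0.512 times with PLG+EACA. Neither difference passed the adjustment over the 15 ratio tests made (exact permutation p = 0.0286 each, the smallest possible, Benjamini-Hochberg adjusted p = 0.107), although the groups did not overlap. A ratio at that smallest p passes only if most of the 15 tests reach it too, so not passing says little. The RNase T2 sum had the same exact permutation p against untreated cells, in a family of 3 tests.

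Among the lysosomal enzymes, Dnase2a (chromosome 8, 84908560 to 84922915, plus strand, ENSMUSG00000003812.13) was lower in both treatments. It was measured at 9.72, 8.78, 10.3 and 8.17 FPKM with PLG+EACA+RNase, 7.48, 8.82, 7.96 and 7.63 with PLG+EACA, and 13.2, 12.5, 12.7 and 12.6 in untreated cells. Untreated libraries lay in a narrow band above all 8 treated ones, and the treatments overlapped each other, with the 2 highest treated values in PLG+EACA+RNase.

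Pld3 (chromosome 7, 27532000 to 27553218, minus strand, ENSMUSG00000003363.15) had the highest mean FPKM of the 10 genes in every group. In PLG+EACA+RNase replicate 2, Rnh1 stood above it, at 176 against 172 FPKM. Values of Pld3 were 174, 172, 197 and 162 FPKM with PLG+EACA+RNase, 165, 167, 173 and 173 with PLG+EACA, and 208, 210.4, 231 and 205 in untreated cells. All treated values lay below all untreated ones. Its relative Pld4 (chromosome 12, 112760655 to 112768990, plus strand, ENSMUSG00000052160.7), whose coding sequence was 65.6% identical to that of Pld3 over aligned bases, was measured at 13.2, 11.4, 10.7 and 14.4 FPKM with PLG+EACA+RNase, 13.8, 17.6, 9.43 and 17.03 with PLG+EACA, and 11.9, 13.2, 11.98 and 13.96 in untreated cells. The Pld4 groups overlapped in all 3 comparisons, and PLG+EACA held both the highest and the lowest library. PLD4 is also strong in plasmacytoid dendritic cells, whose 5 measured markers summed to 2.68 to 3.70 FPKM with PLG+EACA+RNase, 2.94 to 3.78 with PLG+EACA and 4.07 to 5.63 in untreated cells. Most of this came from Cox6a2, with means of 1.89, 2.06 and 3.6 FPKM in that order. Pacsin1, the next, had means of 1.02, 1.05 and 0.847. Siglech, Ccr9 and Klk1 averaged at most 0.0335, 0.1995 and 0.05925 FPKM in any group. The part of plasmacytoid dendritic cells in the Pld4 level was not tested.

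Sidt2 (chromosome 9, 45937857 to 45955258, minus strand, ENSMUSG00000034908.16) was lower in both treatments. It was measured at 32.7, 30.8, 33.8 and 34.5 FPKM with PLG+EACA+RNase, 33.0, 34.5, 33.0 and 41.1 with PLG+EACA, and 46.6, 45.8, 47.9 and 45.1 in untreated cells. Every treated library lay below every untreated one, with PLG+EACA replicate 4 the nearest to them. Sidt1 (chromosome 16, 44240180 to 44333196, minus strand, ENSMUSG00000022696.17), 72.3% identical to Sidt2 in aligned coding bases, had 4, 14 and 3 reads in all in the PLG+EACA+RNase, PLG+EACA and untreated libraries. Sidt1 had no read in 4 libraries, which allows up to 0.0282 to 0.0412 FPKM there at a floor of 3 reads. In limma without an expression filter, its Benjamini-Hochberg adjusted p against untreated cells was 0.868 with PLG+EACA+RNase and 0.0912 with PLG+EACA. Between the treatments it was 0.208. With so few reads, a change of Sidt1 was neither shown nor excluded.

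In limma on log2(FPKM + 0.5), 7 of the 10 genes passed the filter of at least 1 FPKM in at least 4 of 12 libraries. Rnaset2b, Ang and Sidt1 fell under it, and Rnaset2a passed it only through 7 treated libraries and therefore had to differ, so it is left out of the counts here and taken from a fit with no filter. The other 6 genes reached 1 FPKM in every library. Against untreated cells, 1 of the 6 genes was higher and 4 were lower with PLG+EACA+RNase at a Benjamini-Hochberg adjusted p under 0.05. The background of that comparison was 64.4% of the 11165 genes tested, 16.0% higher and 48.4% lower. With PLG+EACA, 1 was likewise higher and 4 were lower, against a background of 68.3%, 14.9% higher and 53.4% lower. In all 10 genes, 3 lay wholly above and 4 wholly below untreated cells in each comparison, while groups did not overlap in 61.7% of tested genes with PLG+EACA+RNase and in 64.6% with PLG+EACA. With such backgrounds, the number of genes called says nothing particular about them.

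The gene changes in limma with Benjamini-Hochberg adjustment were as follows. Rnase4 had a log2 fold change of 0.65 (SE 0.17, adjusted p = 0.00457) with PLG+EACA+RNase and 0.56 (SE 0.17, adjusted p = 0.0109) with PLG+EACA. Dnase2a had -0.45 (SE 0.070, adjusted p = 0.000153) with PLG+EACA+RNase and -0.65 (SE 0.070, adjusted p = 8.65e-06) with PLG+EACA. These values make it 1.37-fold lower with PLG+EACA+RNase and 1.57-fold lower with PLG+EACA than in untreated cells. Sidt2 was 1.403-fold lower (adjusted p = 5.62e-05) with PLG+EACA+RNase and 1.31-fold lower (adjusted p = 0.000272) with PLG+EACA. Rnh1 was 1.21-fold lower (adjusted p = 0.000853) with PLG+EACA+RNase and 1.33-fold lower (adjusted p = 4.22e-05) with PLG+EACA. Pld3 was 1.21-fold lower (adjusted p = 0.00133) with PLG+EACA+RNase and 1.26-fold lower (adjusted p = 0.000375) with PLG+EACA. Pld4 passed in neither, with a log2 fold change of -0.05 (95% interval -0.40 to 0.31, adjusted p = 0.821) with PLG+EACA+RNase and 0.14 (95% interval -0.22 to 0.50, adjusted p = 0.474) with PLG+EACA. Without PLG+EACA replicate 3, its lowest library, the PLG+EACA value of Pld4 was 0.32 (adjusted p = 0.0243). When no filter was used and all 32246 genes were tested, Rnaset2a had a log2 fold change of 0.68 (SE 0.14, adjusted p = 0.00272) with PLG+EACA+RNase and 0.75 (SE 0.14, adjusted p = 0.00154) with PLG+EACA. In that fit Rnaset2b was higher by 0.82 (adjusted p = 0.000196) with PLG+EACA+RNase and by 0.72 (adjusted p = 0.000452) with PLG+EACA, and neither Ang nor Sidt1 passed. The pseudocount of 0.5 shrinks the changes of genes at such low levels, while the RNase T2 sum above was taken without it. Without the filter, 10.3% of genes were called higher with PLG+EACA+RNase and 5.41% with PLG+EACA.

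The decreases have to be read against a shift of the whole table. The median log2 fold change of all genes tested was -0.20 with PLG+EACA+RNase and -0.26 with PLG+EACA, and that of the 6 genes was -0.28 with PLG+EACA+RNase and -0.36 with PLG+EACA. With median-of-ratios scaling, which removes most of that shift, Dnase2a was still lower in both treatments (-0.22, limma with Benjamini-Hochberg adjusted p = 0.0143, with PLG+EACA+RNase and -0.38, adjusted p = 0.000508, with PLG+EACA). Sidt2 was still lower with PLG+EACA+RNase (-0.26, adjusted p = 0.0226), and no longer called with PLG+EACA (-0.12, adjusted p = 0.274). Rnh1 lost its call in both (adjusted p = 0.52 with PLG+EACA+RNase and 0.0536 with PLG+EACA), as did Pld3 (adjusted p = 0.554 with PLG+EACA+RNase and 0.498 with PLG+EACA). Rnase4 (0.84, adjusted p = 0.00109 with PLG+EACA+RNase; 0.78, adjusted p = 0.00177 with PLG+EACA) stayed higher. The count of the 6 genes was thus 1 higher and 2 lower with PLG+EACA+RNase, where 28.4% of all tested genes were higher and 26.4% lower after scaling. With PLG+EACA it was 1 higher and 1 lower, against 27.3% higher and 26.4% lower. The summed RNase T2 level after scaling was 1.70 higher on the log2 scale with PLG+EACA+RNase and 1.74 higher with PLG+EACA (exact permutation, Benjamini-Hochberg adjusted p = 0.0429 each).

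**Figure D3:**
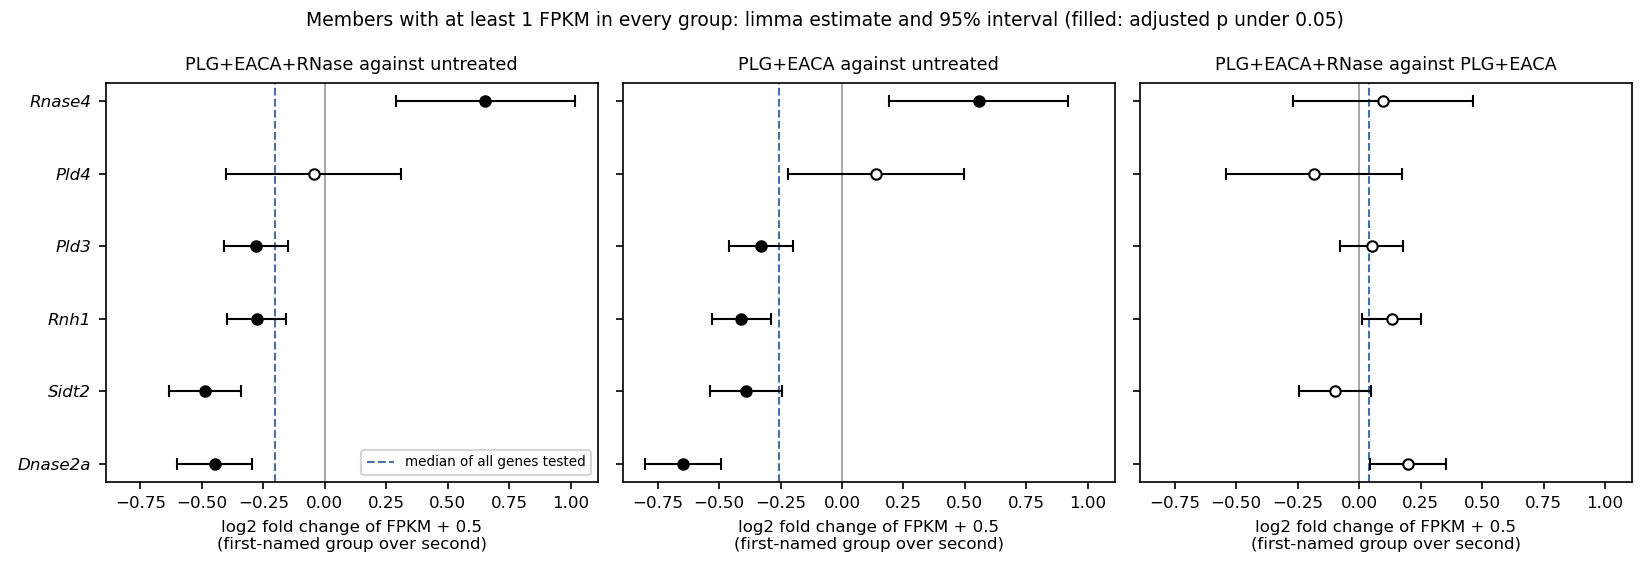
Log2 fold change and 95% interval from limma for the 6 genes with at least 1 FPKM in every library, in 3 comparisons; filled points had a Benjamini-Hochberg adjusted p under 0.05, and the dashed line is the median of all genes tested. Rnase4 stands right of 0 against untreated cells, the interval of Pld3 spans the dashed line, and no point is filled between the treatments.

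Between PLG+EACA+RNase and PLG+EACA, which differ by exposure of the PLG to RNases, none of the 7 genes passed in limma with Benjamini-Hochberg adjustment. In that comparison 20.8% of all tested genes passed, 12.1% higher and 8.73% lower, and groups did not overlap in 18.1%. Median-of-ratios scaling turned that balance to 10.6% higher and 11.4% lower, and the 2324 genes called became 992 without PLG+EACA+RNase replicate 3 and 735 in a fit of the 8 libraries compared. At an unadjusted limma p under 0.05 there were 2, Dnase2a (log2 fold change 0.20, SE 0.070, adjusted p = 0.0642) and Rnh1 (0.13, SE 0.055, adjusted p = 0.104), and limma-voom on the recovered reads called 0. Both were called without PLG+EACA+RNase replicate 4 (Dnase2a 0.25, adjusted p = 0.0156; Rnh1 0.17, adjusted p = 0.0274), Dnase2a also without PLG+EACA replicate 2 (0.25, adjusted p = 0.0365), and Pld4 without PLG+EACA replicate 3 (-0.37, adjusted p = 0.0406). The 95% intervals were -0.24 to 0.05 for Sidt2, -0.08 to 0.18 for Pld3, -0.37 to 0.24 for Rnaset2a, -0.27 to 0.46 for Rnase4 and -0.54 to 0.17 for Pld4. Of the 10 genes, only Ang had groups that did not overlap here, at 5 to 19 reads a library, and its fit without a filter gave 0.29 (adjusted p = 0.376).

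In order of FPKM, a scale per length, untreated cells had Pld3 first, then Rnh1, Sidt2, Pld4, Dnase2a, Rnase4, Rnaset2a, Ang, Rnaset2b and Sidt1. Neighbours in that order overlapped for Pld3 (205 to 231) and Rnh1 (197 to 211), for Pld4 (11.9 to 13.96) and Dnase2a (12.5 to 13.2), for Rnaset2a (0.283 to 0.592) and Ang (0.149 to 0.612), and for Ang and Rnaset2b (0.154 to 0.214). In both treatments the order of means was the same except that Rnaset2b stood above Ang. The shared sequence of the RNase T2 copies makes the places of Rnaset2a and Rnaset2b uncertain in all 3 groups.

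In 3 other pairs the groups overlapped in all comparisons. The log2 ratio of Pld4 to Pld3 was -3.78 ± 0.294 with PLG+EACA+RNase, -3.55 ± 0.412 with PLG+EACA and -4.01 ± 0.166 in untreated cells (SD, n = 4; smallest exact permutation p = 0.114, Benjamini-Hochberg adjusted p = 0.343). That of Rnaset2b to Rnaset2a was -0.35 ± 0.229 with PLG+EACA+RNase, -0.51 ± 0.169 with PLG+EACA and -0.49 ± 0.192 in untreated cells. That of Rnase4 to Ang was 1.64 ± 0.336 with PLG+EACA+RNase, 1.83 ± 0.341 with PLG+EACA and 1.48 ± 0.497 in untreated cells. Untreated means were 0.457 FPKM for Rnaset2a, 0.178 for Rnaset2b and 0.318 for Ang, all below the pseudocount of 0.5. It pulls the values of a pair together, so the ratios with these genes do not show that the genes changed alike. The log2 ratio of Sidt1 to Sidt2 was -6.04 ± 0.0995 with PLG+EACA+RNase, -6.07 ± 0.109 with PLG+EACA and -6.53 ± 0.0155 in untreated cells. Every treated library lay above every untreated one, and neither difference passed the adjustment (exact permutation p = 0.0286, Benjamini-Hochberg adjusted p = 0.107, for each treatment). With Sidt1 near 0, this ratio is close to that of the pseudocount to Sidt2.

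**Figure D4:**
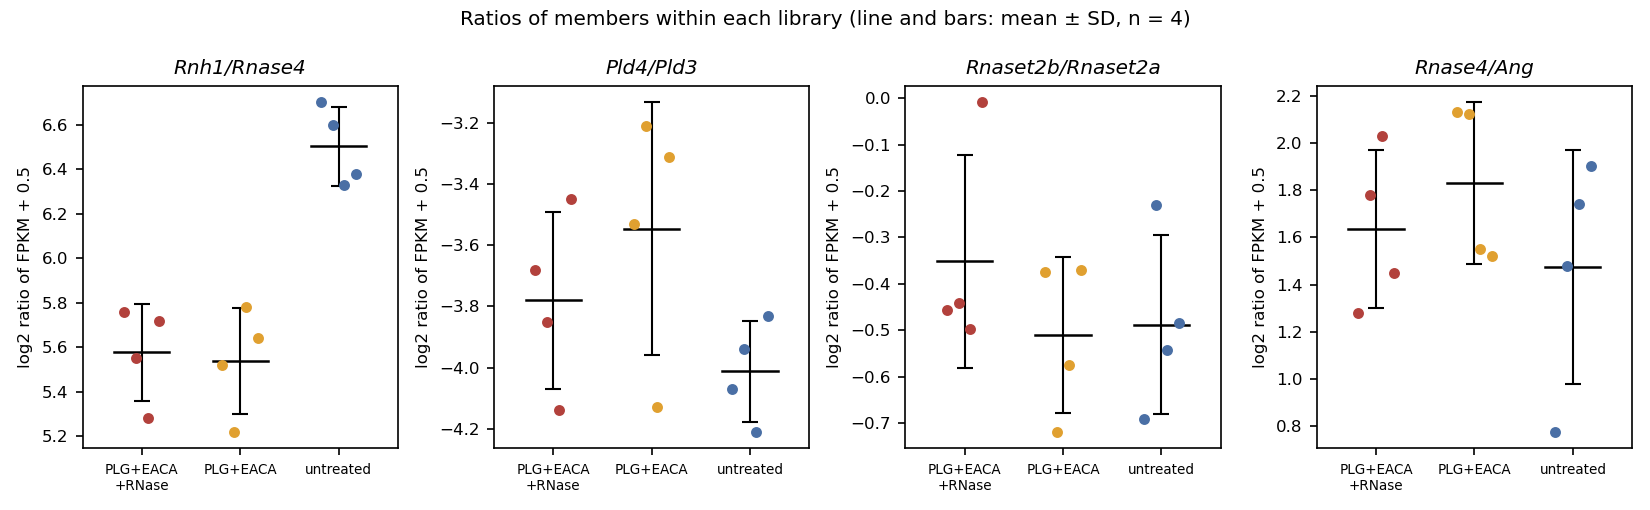
Log2 ratios of FPKM + 0.5 between gene pairs within each library (1 point a library, line and bars the mean ± SD, n = 4), with PLG+EACA+RNase, PLG+EACA and untreated cells from left to right. Only the ratio of Rnh1 to Rnase4, of the 4 pairs drawn, has untreated libraries apart from all treated ones.

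Some genes followed the same course over the 12 libraries, measured by the root-mean-square difference of log2 values after each gene's own mean was removed. Pld3 was nearest to Ctsd, which encodes the lysosomal protease cathepsin D (0.030), then Ddost and Decr2. Rnh1 was nearest to Tmem234 (0.049), Qars and Cuedc2, Sidt2 to Fam49b (0.051), Sdhb and P2rx4, and Dnase2a to Polr2e (0.059), Tmem63a and Gpsm3. Many genes were this close, 568 within 0.1 of Pld3 and 666 of Rnh1 among 10017 candidates, against 201 for Sidt2 and 127 for Dnase2a. For Rnaset2a (nearest Oser1 at 0.11, Osgin2 and Pi4k2b) and Rnase4 (Cdc42ep4 at 0.19, Mocos and Dennd2a), both with few counted reads, and for Pld4 (Ephx1 at 0.10, Naaa and Daglb), no gene lay within 0.1.

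Promoter windows were searched on both strands for GAAANNGAA, the core of the interferon-stimulated response element, TTCNNNGAA, a STAT site, and TCACGTGA, the core of the lysosomal CLEAR element. The 10 genes had 14 windows, with the window that Rnase4 and Ang share counted for each. The first motif was found in 3 of them, as GAAAGAGAA for Pld3 and Rnh1 and GAAAGGGAA for Sidt1. It was in 8.55% of the 32817 distinct windows of all genes. The others were in none of the 14 windows, against 8.29% for the STAT site and 0.98% for the CLEAR core. These are matches of letters in short windows, not sites of binding.

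Related genes give the surroundings. Their counts stand beside the shares of all tested genes called. These were 16.0% higher and 48.4% lower with PLG+EACA+RNase, and 14.9% higher and 53.4% lower with PLG+EACA. After median-of-ratios scaling they were 28.4% and 26.4% with PLG+EACA+RNase, and 27.3% and 26.4% with PLG+EACA. Between the treatments they were 12.1% higher and 8.73% lower, and 10.6% and 11.4% after scaling. Of other secreted and lysosomal nucleases, 7 of 17 in the table were tested, and none was called with PLG+EACA+RNase (limma with Benjamini-Hochberg adjustment, smallest p for Dnase1l1 and Rnase6). Among those under the filter and not tested, Rnase10 averaged 0.811 ± 0.0598 FPKM with PLG+EACA+RNase, 1.03 ± 0.184 with PLG+EACA and 0.112 ± 0.0416 in untreated cells. Dnase1, also not tested, went the other way, at 0.281 ± 0.0849, 0.203 ± 0.0746 and 0.4475 ± 0.1 in the same order. The median log2 fold change of the tested ones was 0.06 with PLG+EACA+RNase and 0.16 with PLG+EACA, against -0.20 and -0.26 for all genes. With PLG+EACA, 1 was higher, Rnase6, an antimicrobial ribonuclease (2.20 ± 0.956 FPKM with PLG+EACA and 1.17 ± 0.0922 in untreated cells), and 1 lower, Rnasek (0.55 ± 0.381 FPKM with PLG+EACA and 1.05 ± 0.228 in untreated cells). With median-of-ratios scaling the counts were 1 higher with PLG+EACA+RNase and 5 higher with PLG+EACA, and none lower. Between the treatments 2 were higher and 1 lower (median -0.19, all genes 0.04; after median-of-ratios scaling 1 higher, 1 lower), with Dnase1l1 and Rnasek higher and Endod1 lower with PLG+EACA+RNase. Rnasek, at 1.11 ± 0.194 FPKM with PLG+EACA+RNase and 0.55 ± 0.381 with PLG+EACA, and Endod1 were still called after scaling, and Dnase1l1 was not (limma with Benjamini-Hochberg adjusted p = 0.0648).

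Of 15 endosomal nucleic acid receptors and their trafficking genes, 3 were higher and 11 lower with PLG+EACA+RNase (median log2 fold change -0.36, all genes -0.20), and 2 higher and 6 lower with PLG+EACA (median -0.17, all genes -0.26). With median-of-ratios scaling these became 4 higher and 5 lower with PLG+EACA+RNase, and 5 higher and 3 lower with PLG+EACA. Cnpy3, a chaperone of Toll-like receptors, was lower, at 23.5 ± 1.23 FPKM with PLG+EACA+RNase, 22.4 ± 0.691 with PLG+EACA and 40.6 ± 0.826 in untreated cells. Tlr13, the mouse receptor for bacterial ribosomal RNA, stood at 13.5 ± 1.06 FPKM with PLG+EACA+RNase, 15.3 ± 1.63 with PLG+EACA and 27.5 ± 1.64 in untreated cells. Between the treatments 1 was higher, Ticam1 (18.6 ± 2.24 with PLG+EACA+RNase and 13.8 ± 0.595 with PLG+EACA), and 5 lower (median -0.17, all genes 0.04), with the adaptor gene Myd88 at 32.9 ± 7.38 FPKM with PLG+EACA+RNase and 51.9 ± 7.8 with PLG+EACA.

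Of 15 tested genes that handle nucleotides and nucleosides after digestion, 2 were higher and 8 lower with PLG+EACA+RNase (median -0.25) and 3 higher and 8 lower with PLG+EACA (median -0.19). With median-of-ratios scaling these were 3 higher and 6 lower with PLG+EACA+RNase, and 3 higher and 7 lower with PLG+EACA. Slc29a3, the lysosomal nucleoside exporter, averaged 16.9 ± 1.49 FPKM with PLG+EACA+RNase, 15.7 ± 1.06 with PLG+EACA and 25.9 ± 0.677 in untreated cells. Slc29a1, its relative in the plasma membrane, and the uridine-cytidine kinase gene Uck1 were also lower, Uck1 at 6.43 ± 0.244 FPKM with PLG+EACA+RNase, 5.83 ± 0.455 with PLG+EACA and 9.74 ± 0.437 in untreated cells. Between the treatments 3 were higher and 4 lower (median -0.02), with the smallest p for Uck2 (13.7 ± 2.02 with PLG+EACA+RNase and 8.36 ± 1.16 with PLG+EACA) and Gda (2.87 ± 0.435 with PLG+EACA+RNase and 4.68 ± 0.835 with PLG+EACA).

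Of 15 cytosolic and interferon-induced nucleases, 6 were higher and 6 lower in each comparison with untreated cells, with a median of -0.09 for PLG+EACA+RNase and -0.13 for PLG+EACA. With median-of-ratios scaling these were 7 higher and 3 lower with PLG+EACA+RNase, and 7 higher and 2 lower with PLG+EACA. Isg20, an interferon-induced exonuclease, averaged 16.5 ± 8.1 FPKM with PLG+EACA+RNase, 31.6 ± 9.18 with PLG+EACA and 1.73 ± 0.601 in untreated cells. Isg20l2 was lower in both, and Pnpt1, a mitochondrial exonuclease, averaged 6.43 ± 1.07 FPKM with PLG+EACA+RNase, 10.4 ± 2.38 with PLG+EACA and 4.52 ± 0.318 in untreated cells. Between the treatments 6 were lower and none higher with PLG+EACA+RNase (median -0.06). The 5′ exonuclease gene Xrn1 had the smallest p (2.89 ± 0.601 FPKM with PLG+EACA+RNase and 4.65 ± 0.692 with PLG+EACA), while Isg20, Samhd1 and Pnpt1 had larger fold changes.

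Of 8 nucleic acid uptake receptors, 1 was higher and 4 lower with PLG+EACA+RNase (median -0.19) and 1 higher and 6 lower with PLG+EACA (median -0.48). With median-of-ratios scaling these were 2 higher and 2 lower with PLG+EACA+RNase, and 2 higher and 4 lower with PLG+EACA. The scavenger receptor gene Msr1 averaged 41.6 ± 2.32 FPKM with PLG+EACA+RNase, 52.5 ± 6.36 with PLG+EACA and 69.3 ± 2.06 in untreated cells, and with PLG+EACA it was not called after scaling (limma with Benjamini-Hochberg adjusted p = 0.26). Colec12, another scavenger receptor gene, averaged 1.01 ± 0.0948 FPKM with PLG+EACA+RNase, 1.01 ± 0.116 with PLG+EACA and 1.88 ± 0.189 in untreated cells. Cd36 was lower in both as well, but with PLG+EACA+RNase its log2 fold change of -0.29 became -0.06 after scaling (limma with Benjamini-Hochberg adjusted p = 0.564). Between the treatments 3 were higher and 1 lower (median 0.12), among them Marco at 16.4 ± 2.56 FPKM with PLG+EACA+RNase and 9.67 ± 0.908 with PLG+EACA. Of 27 lysosome genes, 3 were higher and 19 lower with PLG+EACA+RNase (median -0.26) and 3 higher and 22 lower with PLG+EACA (median -0.34), which became 6 higher and 4 lower with PLG+EACA+RNase and 5 higher and 8 lower with PLG+EACA under median-of-ratios scaling. The glucuronidase gene Gusb (59.2 ± 2.11 FPKM with PLG+EACA+RNase, 62.9 ± 0.77 with PLG+EACA, 87.3 ± 2.92 in untreated cells) and Tfe3, a regulator of lysosome genes, were lower in both. Between the treatments 7 were higher with PLG+EACA+RNase and none lower (median 0.07; after median-of-ratios scaling 6 higher, 3 lower), among them Tfeb, a regulator of lysosome genes (5.47 ± 1.1 with PLG+EACA+RNase and 3.20 ± 0.746 with PLG+EACA), and Atp6v0d1.

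**Figure D5:**
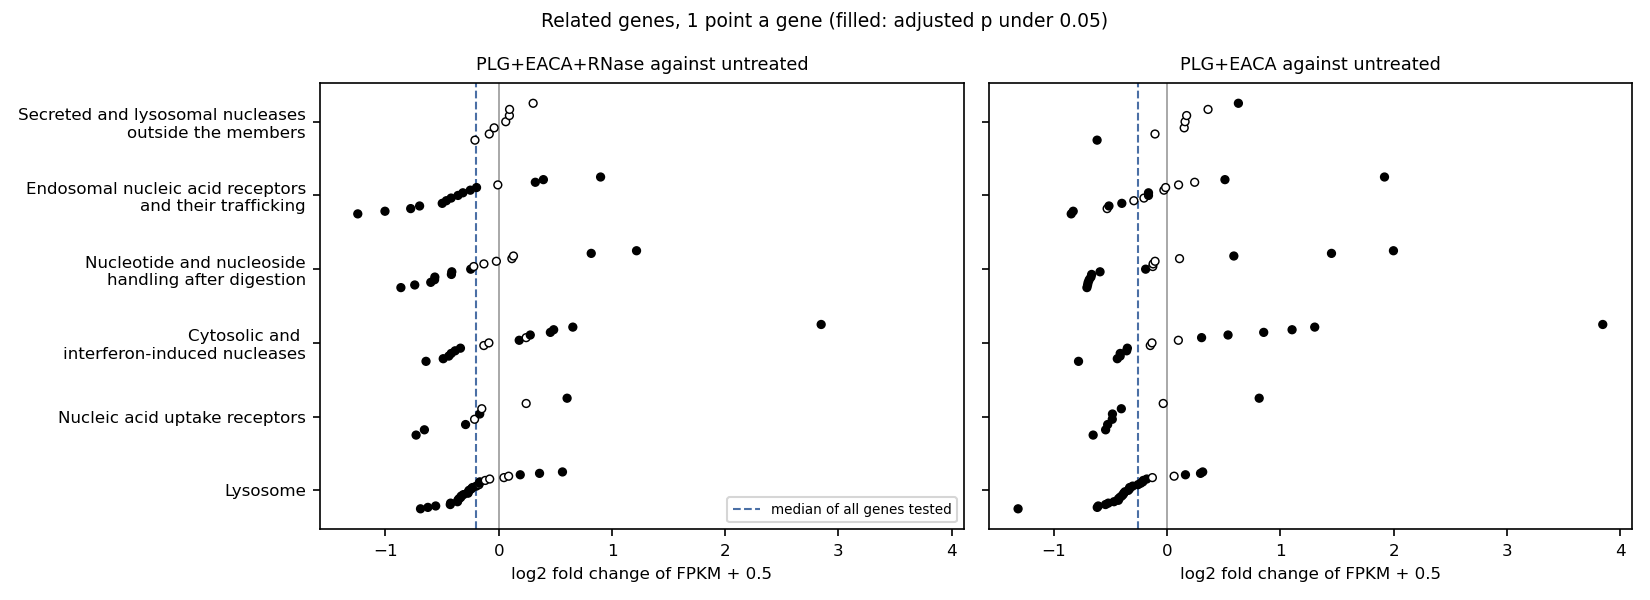
Log2 fold change against untreated cells for the tested genes of 6 related lists, PLG+EACA+RNase on the left and PLG+EACA on the right; filled points had a limma Benjamini-Hochberg adjusted p under 0.05, and the dashed line is the median of all genes tested. Lysosome genes gather at the dashed line, and Isg20 is the point farthest to the right in both panels.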

How the data were processed

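Total RNA of 12 libraries was made into directional libraries, per the labels. The authors deposited FPKM (reads scaled to gene length and to each library's counted reads) for 32246 genes, with gene lengths and GRCm38 coordinates, unscaled between libraries. Tools listed without a role in the submitters' processing notes were STAR 2.7.11a, featureCounts 2.0.6, DESeq2 1.40.2, cutadapt 4.5 and FastQC 0.12.1. Reads were recovered from the FPKM steps, with 100% of the checked values within 0.1 of a whole read.

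Genes with at least 1 FPKM in at least 4 of 12 libraries (11165) were fitted on log2(FPKM + 0.5) in 1 model of 3 group means with limma 3.58.1 (trend, R 4.3.3), two-sided, with Benjamini-Hochberg adjustment over all genes tested and a threshold of 0.05. Ratios of FPKM + 0.5 and sums of FPKM without a pseudocount were tested on the log2 scale by exact permutation over 4 against 4 libraries. The limma step and the recovery of reads were tested on simulated data. Sequences were read with Python 3.11.15 and Biopython 1.88 from RefSeq promoter windows and GENCODE transcripts. Alternatives were pseudocounts of 0.1 and 1, no filter, median-of-ratios scaling, a replicate block, the 8 libraries of a comparison alone, limma-voom on recovered reads, and leaving out each library.

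All 10 genes were to be named, with the 2 tested genes of smallest p in each related list and comparison and the 3 genes nearest in course to each tested gene, leaving out symbols that are only identifiers. Genes and lists were chosen with earlier results of these data known. Symbols of the lists outside the table were not analysed here.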

Additional observations from a re-analysis of the deposited data

Results flagged for a closer look

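Within groups of 4 libraries, 4 of 48 sets of values had a highest or lowest library set apart from the other 3 by a larger part of the whole range than Dixon's critical value, where chance flags about 1 in 20 groups. Rnaset2a was highest in PLG+EACA replicate 3 at 1.256 FPKM, while the others lay at 1.03 to 1.06. Rnaset2b was lowest in PLG+EACA replicate 2 at 0.445 FPKM, below 0.679 to 0.690 in the others. Ang was highest in PLG+EACA+RNase replicate 1 at 0.775 FPKM. The log2 ratio of Rnaset2b to Rnaset2a was highest in PLG+EACA+RNase replicate 4, at -0.0093. The values rest on few reads, and no cause was tested.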

How the results depend on the processing

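With PLG+EACA against untreated cells, median-of-ratios scaling took the 6 genes above from 1 higher and 4 lower to 1 higher and 1 lower. All tested genes went from 14.9% higher and 53.4% lower to 27.3% higher and 26.4% lower. The cause was not tested beyond the shift of the median given above. All genes called between PLG+EACA+RNase and PLG+EACA, 2324 in the model of 12 libraries, were 735 with only the 8 libraries of the comparison and 992 to 3228 when 1 library was left out (992 without PLG+EACA+RNase replicate 3, 1030 without replicate 2 and 1448 without PLG+EACA replicate 4), and members called were 0 to 2. Limma-voom called 7256 genes with PLG+EACA+RNase and 7703 with PLG+EACA against untreated cells, and 2427 between the treatments.

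Some differences that passed no test changed sign. For PLG+EACA+RNase against untreated cells, Pld4 was 0.18 with the scaling and -0.12 to 0.021 with 1 library left out. Between the treatments, 1 library left out gave -0.013 to 0.24 for Rnase4, -0.0038 to 0.09 for Pld3 and -0.15 to 0.037 for Rnaset2a; the RNase T2 sum was -0.035 with the scaling and -0.097 to 0.083 with 1 library left out. At a pseudocount of 0.1 the log2 ratio differences were 0.24 (Rnaset2b to Rnaset2a, PLG+EACA against untreated), -0.14 (Rnase4 to Ang, PLG+EACA+RNase against untreated) and -0.18 (Sidt1 to Sidt2, between the treatments); with 1 library left out those ranged from -0.090 to 0.063, -0.072 to 0.30 and -0.016 to 0.067, and Rnh1 to Rnase4 between the treatments from -0.072 to 0.13.

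Against untreated cells the RNase T2 sum stayed 1.31 to 1.57 higher on the log2 scale with PLG+EACA+RNase and 1.30 to 1.56 with PLG+EACA when 1 library was left out (exact permutation, adjusted p = 0.0429 each). With a replicate block the sums were 1.47 (PLG+EACA+RNase) and 1.46 (PLG+EACA) with an exact sign-flip permutation p = 0.125, the smallest that 4 pairs allow, and 2678 genes and 0 members were called between the treatments. Same-numbered libraries correlated at -0.176 to 0.332, and not every library correlated best with its own number. Whether the numbers pair the samples is not stated, and 4 libraries a group are too few to decide it. The block changed no other call of the members. Of 342 alternative fold changes of the other 6 tested genes, 328 kept direction and side of the threshold, 4 changed sign, 5 lost a call and 5 gained one. Depth limits Ang, Sidt1 and the RNase T2 copies, whose values rest on 0 to 90 reads a library.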
